A study of Mus musculus with 6 samples.

Results

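The annexin genes described here are 8 members of the annexin family, Anxa1, Anxa2, Anxa3, Anxa4, Anxa5, Anxa6, Anxa7 and Anxa11, out of 24411 genes in the count table. They were picked by symbol, with results of the same comparison already known, so their differences between the groups describe these libraries and are no independent test. RNA sequencing was run on primary cultures of mouse cortical neurons made from embryos at day 18. The 3 samples labelled PFF had received 3.45 µM of preformed fibrils of mouse α-synuclein on culture day 10. The 3 labelled vehicle-treated, called PBS here, had received phosphate-buffered saline. RNA of both groups was collected on culture day 18, which is 8 days later. Such fibrils are assembled in the test tube and seed aggregation of the cell's own α-synuclein. The labels name no strain, sex or genotype and no further treatment, and they do not tie a library to a culture or animal of its own. The p-values therefore cover the spread among these 3 and 3 samples, part of which may be technical.

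Annexins are cytosolic proteins that bind negatively charged phospholipids, phosphatidylserine above all, when calcium rises. A conserved core carries the calcium sites, and an N-terminal tail that differs from member to member sets the partner, often a protein of the S100 family. They are known for membrane repair, vesicle traffic and the clearance of dying cells. In the brain annexin A1 is known as an anti-inflammatory protein of microglia and of the blood-brain barrier, and annexin A3 is used as a marker of microglia.

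The coding lengths differ among the members. In GENCODE vM21 on GRCm38 (the mm10 assembly), the longest coding sequences of Anxa5 and Anxa4 are 957 bases each, close to those of Anxa3 (969), Anxa2 (1017) and Anxa1 (1038). Those of Anxa7 (1455) and Anxa11 (1509), whose proteins have long N-terminal tails, are longer, and that of Anxa6 (2019), whose protein holds a duplicated core, is the longest of the 8. All 8 genes are protein-coding. Anxa1 lies on chromosome 19 from 20373428 to 20390944, Anxa3 on chromosome 5 from 96793339 to 96845966, Anxa4 on chromosome 6 from 86736840 to 86793584 and Anxa5 on chromosome 3 from 36448923 to 36475894. Anxa2 lies on chromosome 9 from 69453620 to 69491795, Anxa6 on chromosome 11 from 54979108 to 55033445, Anxa7 on chromosome 14 from 20455260 to 20480133 and Anxa11 on the same chromosome from 25842156 to 25886804, 5.36 Mb away. At most 3.07% of the exonic bases of a member (Anxa3) lie inside another gene, so little of these counts could be shared with a neighbour. The counts are per gene and do not separate exons or transcripts.

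Total counts per library ranged from 9224974 to 10742383, and the low-count filter kept 13919 genes for testing. Replicate 3 of both groups stood apart from the other libraries on the second principal component, which held 18.3% of the variance, while the first held 49.2% and separated the groups. No replicate pair was within sampling noise, with a chi-square per degree of freedom of 2.78 or more. Neuron markers summed to between 5908 and 6347 CPM (counts per 1000000, scaled between libraries by TMM) in PBS and between 6290 and 7054 in PFF. Markers of astrocytes (3574 to 4808 CPM over both groups) and of the oligodendrocyte lineage (1104 to 1481) were also present, and those of endothelium, pericytes and meningeal fibroblasts were scarce (44.7 to 90.4). Markers of microglia and macrophages summed to between 223 and 348.5 CPM in PBS and between 636.2 and 777.9 in PFF, and 17 of 18 tested members of that list rose, with none of the 19 listed at 0 in every library. In bulk RNA, more cells of a type and more RNA per cell cannot be told apart. Over all genes tested, 3.98% were called higher and 2.6% lower. Of the other lists, 3 of 10 astrocyte markers fell, 5 of 13 oligodendrocyte lineage markers rose and 7 fell, 2 of 13 neuron markers rose and 1 of 11 tested endothelial, pericyte and fibroblast markers fell. The count that fell was 1 without PBS 1 and 0 without PFF 2 for astrocytes, and 4 without either library for the oligodendrocyte lineage. The endothelial count was 0 without PBS 1, PBS 3 or PFF 2, 2 without PFF 1 and 4 without PFF 3. The neuron count was 1 without PBS 1, PBS 2, PFF 1 or PFF 2 and 6 without PFF 3.

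The sequences upstream of 3 start sites are shown because they hold the only matches among the members to the motifs searched. RefSeq promoters on GRCm38.p6 matched 6 of the 8 genes, those of Anxa1, Anxa2, Anxa4, Anxa5, Anxa7 and Anxa11, with 8 start sites in all. Each line gives the 250 bases before the start, 5′ to 3′ on the gene's strand, and capitals mark a motif match. Anxa1 (chr19:20390672-20390921, minus strand) is shown as the member with the largest rise, Anxa4 (chr6:86793585-86793834, minus strand) as another that rose, and Anxa2 (chr9:69453433-69453682, plus strand) as one that did not pass the test.
Anxa1: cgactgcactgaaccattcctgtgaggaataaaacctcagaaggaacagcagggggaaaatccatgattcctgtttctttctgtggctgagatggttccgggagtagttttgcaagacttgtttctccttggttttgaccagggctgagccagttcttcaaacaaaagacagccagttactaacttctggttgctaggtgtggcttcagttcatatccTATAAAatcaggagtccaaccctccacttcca
Anxa4: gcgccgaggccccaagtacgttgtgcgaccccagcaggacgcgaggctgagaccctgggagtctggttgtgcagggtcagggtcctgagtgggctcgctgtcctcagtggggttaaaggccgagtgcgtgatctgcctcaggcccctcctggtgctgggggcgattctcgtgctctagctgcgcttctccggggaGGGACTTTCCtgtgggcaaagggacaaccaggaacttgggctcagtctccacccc
Anxa2: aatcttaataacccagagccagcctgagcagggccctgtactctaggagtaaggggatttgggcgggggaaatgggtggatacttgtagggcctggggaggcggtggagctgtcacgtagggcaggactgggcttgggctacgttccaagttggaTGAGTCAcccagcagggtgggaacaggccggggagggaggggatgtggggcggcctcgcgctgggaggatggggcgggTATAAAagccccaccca
The capitals in Anxa1 are a TATA box (TATAAA), 27 to 32 bases before the start. Those in Anxa4 are a canonical NF-kB site, 46 to 55 bases before it. Anxa2 has an AP-1 site (TGANTCA) 89 to 95 bases before its start and TATAAA 12 to 17 bases before it. Both strands were searched, and these matches do not overlap each other. Of 32851 mouse promoter windows of this length, 12.4% held TATAAA, 6.75% TGANTCA and 0.14% the NF-kB site. The other motifs searched, which no member's window held, were GAGGAAGT (PU.1; 2.44% of all windows), TGACGTCA (cAMP response element; 1.55%), the CLEAR site of lysosomal genes (0.24%) and the palindromic glucocorticoid response element (0.387%). The Anxa1 window held 2 CG dinucleotides, against a median of 6 over all windows, and the Anxa4 window shown held 13. A match describes these letters and is not evidence of binding.

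Of the 8 annexins, 4 were called higher in PFF at an adjusted p under 0.05 in edgeR's quasi-likelihood test over all genes, and none was called lower. These were Anxa1, Anxa3, Anxa4 and Anxa5. Over all 13919 genes tested, 3.98% were called higher and 2.6% lower, and because the members were chosen with this contrast in view, nothing is read from the difference. The groups were apart, with every PFF library the higher, for 5 members, these 4 and Anxa11, and for 13.4% of all genes. The median log2 fold change of the 8 was 0.44, against 0.00 over all genes, and 0.40 without Anxa1.

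**Figure D1:**
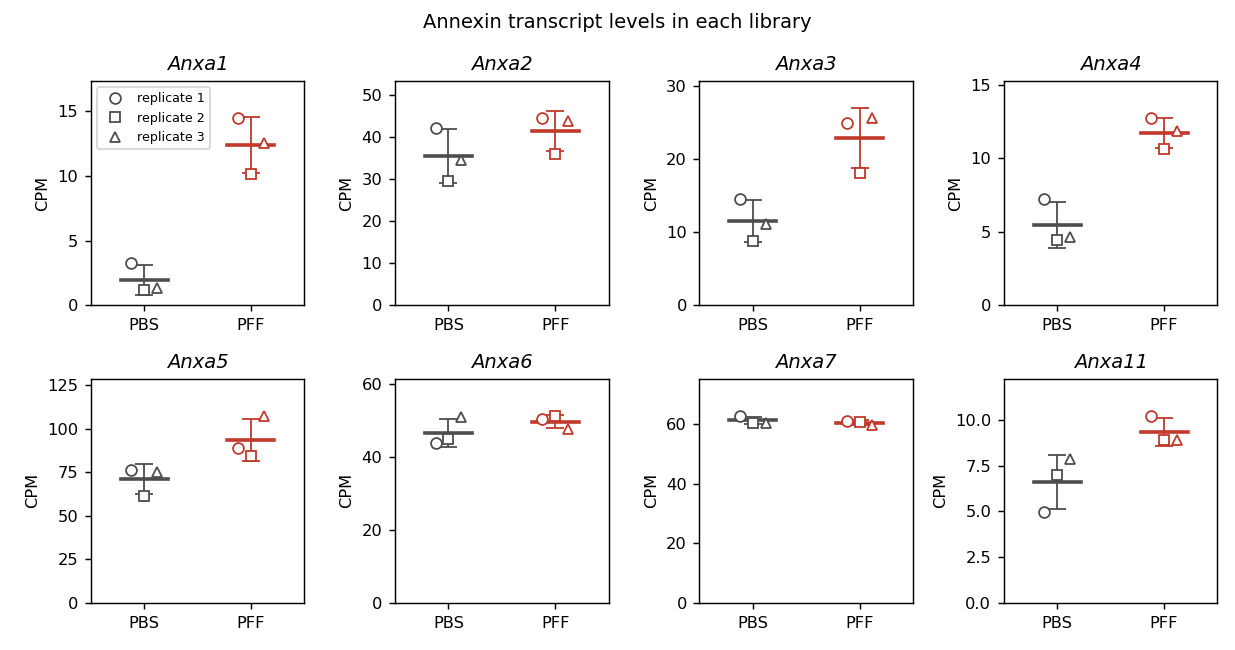
Normalised level of each annexin in every library, in CPM; each panel has its own axis from 0, bars give the mean and the SD of 3 libraries, and symbols give the replicate number. Anxa1, Anxa3, Anxa4, Anxa5 and Anxa11 show no overlap between the groups, and Anxa7 lies between 59.7 and 62.8 CPM in all 6 libraries.

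Anxa1 encodes the protein once called lipocortin, an inhibitor of leukocyte recruitment that acts through formyl peptide receptors. It was at 3.25, 1.17 and 1.35 CPM in PBS 1, 2 and 3 and at 14.5, 10.2 and 12.6 CPM in PFF 1, 2 and 3. The groups did not overlap, and the highest PBS library (PBS 1) lay well below the lowest PFF library (PFF 2). These levels rest on 30, 12 and 14 counts in PBS and on 150, 104 and 127 in PFF. The mean rose from 1.92 ± 1.15 to 12.4 ± 2.14 CPM (SD, n = 3 each), a log2 fold change of 2.71 ± 0.27 (SE; edgeR adjusted p = 5.55e-05), or 6.56-fold. Only 3 of the 13919 genes had a larger log2 fold change, so that it ranked 4. The call held under all 18 alternative settings, with a log2 fold change from 2.45 (without PBS 2) to 3.29 (without PBS 1).

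Anxa4, which is best known from epithelia, stood next in size of change. Its level was 7.26, 4.47 and 4.62 CPM in PBS 1, 2 and 3 and 12.7, 10.7 and 11.9 CPM in PFF 1, 2 and 3. As for Anxa1, PBS 1 was the highest of the control libraries and PFF 2 the lowest of the treated ones. Its mean rose from 5.45 ± 1.57 to 11.8 ± 1.03 CPM, a log2 fold change of 1.12 ± 0.18 (edgeR adjusted p = 0.00190).

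Anxa3, whose protein is used as a marker of microglia, was at 14.6, 8.84 and 11.2 CPM in PBS 1, 2 and 3 and at 25.0, 18.1 and 25.6 CPM in PFF 1, 2 and 3. Its cell source in these cultures was not measured. The groups were again apart, with PBS 2 and PFF 2 the lowest library of each. The mean rose from 11.5 ± 2.91 to 22.9 ± 4.15 CPM (log2 fold change 1.00 ± 0.17, edgeR adjusted p = 0.00347). The calls of Anxa3 and Anxa4 held under all 18 alternatives, with log2 fold changes from 0.83 to 1.19 and from 0.99 to 1.37.

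Anxa5, the protein used in the laboratory as a probe for exposed phosphatidylserine, had the highest level per length of the 8. It was at 76.5, 61.2 and 75.5 CPM in PBS 1, 2 and 3 and at 89.3, 84.3 and 107 CPM in PFF 1, 2 and 3. The lowest PFF library was only slightly above the highest PBS library. The mean rose from 71.0 ± 8.55 to 93.6 ± 12.1 CPM, a log2 fold change of 0.40 ± 0.11 (edgeR adjusted p = 0.0392), or 1.32-fold. This call ended without PBS 1 (adjusted p = 0.0813), PBS 2 (0.157), PFF 1 (0.0614), PFF 2 (0.0551) or PFF 3 (0.0538), and with a filter of at least 50 counts in 3 libraries (0.0514).

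Anxa11, mutated in some forms of familial amyotrophic lateral sclerosis and known to tether RNA granules to lysosomes in axons, did not pass the test. Its level was 4.98, 6.99 and 7.89 CPM in PBS 1, 2 and 3 and 10.2, 8.91 and 8.90 CPM in PFF 1, 2 and 3. PBS 1 was here the lowest library, as for Anxa6 and the reverse of Anxa1, Anxa2, Anxa3, Anxa4, Anxa5 and Anxa7 among the PBS libraries. The log2 fold change was 0.49 ± 0.17 (edgeR adjusted p = 0.119). With replicates 1 and 2 only, leaving out the libraries that stood apart, it was 0.67 (adjusted p = 0.0181). That was the only one of 18 alternatives in which it was called, and 8.78% of all genes were called higher there.

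Anxa2, which binds S100a10 in a complex that docks plasminogen at the cell surface, was at 42.3, 29.6 and 34.6 CPM in PBS 1, 2 and 3 and at 44.5, 35.9 and 44.0 CPM in PFF 1, 2 and 3. The groups overlapped, since PBS 1 lay above PFF 2. The log2 fold change was 0.23 ± 0.13 (edgeR adjusted p = 0.317).

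Anxa6, the member with the duplicated core, was at 43.9, 45.0 and 50.9 CPM in PBS 1, 2 and 3 and at 50.2, 51.1 and 47.6 CPM in PFF 1, 2 and 3. The groups overlapped (log2 fold change 0.09 ± 0.09, edgeR adjusted p = 0.595). Anxa7, known as synexin for its role in granule fusion, was at 62.8, 60.6 and 60.6 CPM in PBS 1, 2 and 3 and at 61.3, 60.7 and 59.7 CPM in PFF 1, 2 and 3. It was the steadiest of the 8, with an SD of 2.07% of the mean in PBS and 1.33% in PFF. Its log2 fold change was −0.02 ± 0.07 (edgeR adjusted p = 0.923), and its sign turned when libraries were scaled by their totals only (0.01).

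**Figure D2:**
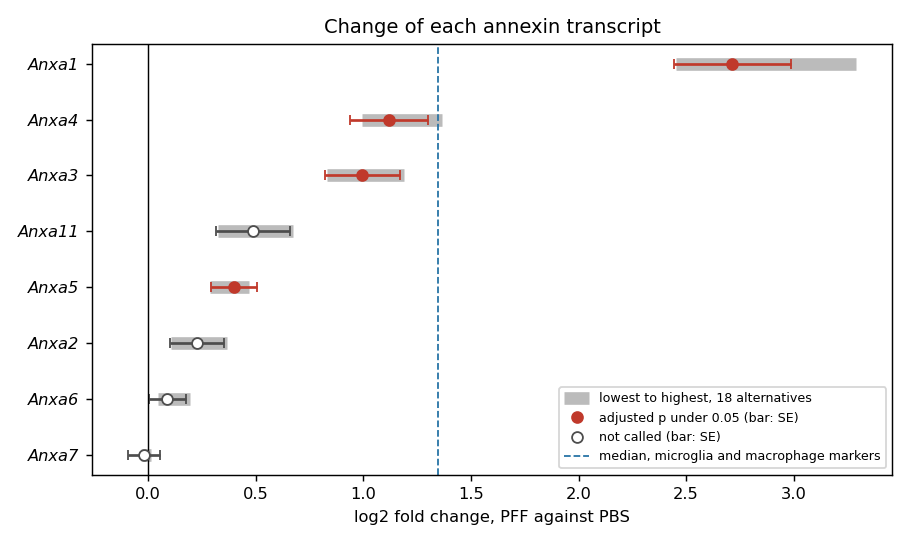
Log2 fold change of each annexin between PFF and PBS (points, bars ± SE), with grey bands from the lowest to the highest value over 18 alternative settings; filled points passed an adjusted p under 0.05. Anxa1 lies at 2.71, right of the dashed line at 1.35, the median of the microglia and macrophage markers, and Anxa3 (1.00) and Anxa4 (1.12) lie left of it.

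The other annexins of the table were at or near the limit of detection and none was tested. Anxa9 had 6, 5 and 10 counts in PBS 1, 2 and 3 and 7, 11 and 6 in PFF 1, 2 and 3. Anxa8 had 1 count in all (PFF 3), Anxa10 had 3 (PFF 1) and Anxa13 had 1 in PBS 3 and 1 in PFF 3. A floor of 3 counts, which was chosen and not measured, corresponds to 0.289 to 0.325 CPM in these libraries. Levels below it rest on fewer than 3 counts and were not compared.

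Per kilobase of exonic length (all annotated exons joined), a scale on which genes can be compared, the 8 annexins summed to 82.2 ± 7.80 CPM per kb in PBS and 106 ± 8.45 in PFF, with every PFF library (97.6 to 114) above every PBS library (73.3 to 87.7). The order of levels in PBS was Anxa5 (39.97 ± 4.81 CPM per kb), Anxa6 (15.9 ± 1.30), Anxa7 (10.2 ± 0.212), Anxa2 (9.52 ± 1.72), Anxa3 (3.17 ± 0.799), Anxa11 (1.60 ± 0.360), Anxa4 (1.17 ± 0.338) and Anxa1 (0.660 ± 0.396). The ranges of Anxa7 and Anxa2 overlapped, as did those of Anxa11 and Anxa4 and those of Anxa4 and Anxa1, so these neighbours could not be ordered. In PFF, Anxa1 stood sixth at 4.26 ± 0.736 CPM per kb, above Anxa4 (2.53 ± 0.222) and Anxa11 (2.26 ± 0.183) in every library. Anxa4 and Anxa11 overlapped, as did Anxa2 (11.1 ± 1.29) and Anxa7 (10.1 ± 0.134). The order of Anxa6 and Anxa7 turned with the length used. Per kilobase of the longest transcript, Anxa7 was at 20.9 to 21.6 in PBS and 20.6 to 21.1 in PFF, above Anxa6 in every library of the same group (17.6 to 20.5 and 19.1 to 20.5). On that length Anxa2 lay below Anxa7 and overlapped Anxa6 in both groups, and Anxa4 lay above Anxa11 in every PFF library. Anxa5 was the highest on both lengths.

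The make-up of the pool shifted toward Anxa1, Anxa3 and Anxa4 while its main member kept its share. Anxa5 supplied 48.5 ± 1.38% of the summed level per kb in PBS and 49.5 ± 2.93% in PFF. The share of Anxa1 was 0.786 ± 0.421% in PBS and 4.005 ± 0.575% in PFF, that of Anxa3 was 3.82 ± 0.667% and 5.89 ± 0.702%, and that of Anxa4 was 1.42 ± 0.323% and 2.39 ± 0.172%. The share of Anxa7 was 12.5 ± 1.11% in PBS and 9.57 ± 0.839% in PFF, and that of Anxa6 was 19.4 ± 2.07% and 16.05 ± 1.85%. For Anxa1, Anxa3, Anxa4 and Anxa7 the shares of the groups did not overlap, while those of Anxa2, Anxa5, Anxa6 and Anxa11 did. The shares add up to a fixed total, so a higher share of one member lowers the others, and no test was made.

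**Figure D3:**
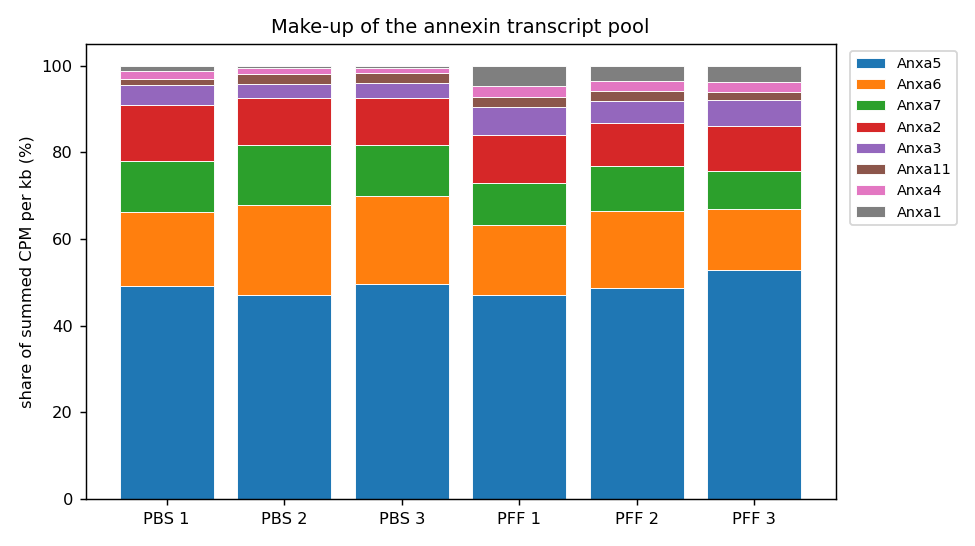
Share of each annexin in the summed level per kilobase of exonic length, in percent, for each of the 6 libraries. Anxa5 makes up between 47.0 and 52.8% in every library, and Anxa1, at the top, between 0.540 and 1.27% in PBS and between 3.59 and 4.66% in PFF.

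The annexins were next set against the microglia and macrophage markers. These markers had log2 fold changes from 0.26 (P2ry12, which did not pass) to 2.09 (Spi1, the gene of the myeloid factor PU.1), with a median of 1.35, and none reached the 2.71 of Anxa1. In contrast, 14 of the 18 tested markers lay above Anxa4 and 16 above Anxa3. Within the PBS group, PBS 1 had the highest summed marker level (348.5 CPM, against 223 in PBS 2 and 279.5 in PBS 3). It also had the highest Anxa1, Anxa2, Anxa3, Anxa4, Anxa5 and Anxa7, and the lowest Anxa6 and Anxa11. Within PFF the order differed: the sum was 636.2, 643.7 and 777.9 CPM in PFF 1, 2 and 3, while PFF 2 had the lowest level of Anxa1, Anxa2, Anxa3, Anxa4 and Anxa5.

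Anxa1 was higher in PFF even per unit of marker level. The log2 ratio of Anxa1 to the summed markers was −6.75, −7.58 and −7.70 in PBS 1, 2 and 3 and −5.46, −5.98 and −5.95 in PFF 1, 2 and 3, a difference of 1.54 between the means with no overlap. The ratio of Anxa4 overlapped between the groups, with means of −5.72 ± 0.178 in PBS and −5.87 ± 0.200 in PFF. That of Anxa3 was lower in PFF by a small margin, with −4.63 ± 0.0447 in PBS and −4.92 ± 0.240 in PFF. The ratios of Anxa2, Anxa5, Anxa6 and Anxa7 were lower in every PFF library, with differences from −0.89 (Anxa5) to −1.31 (Anxa7). The summed markers rose in PFF, so a member with a nearly unchanged level, such as Anxa7 (log2 fold change −0.02), has a lower ratio. The part that these markers have in the annexin differences was not tested beyond these ratios.

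**Figure D4:**
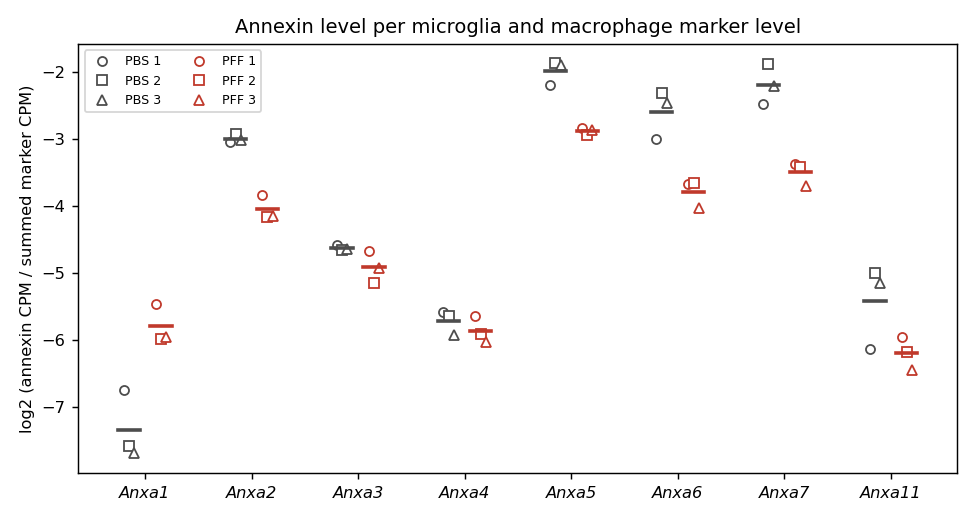
Log2 ratio of each annexin's CPM to the summed CPM of 19 microglia and macrophage markers, per library (symbols), with the group mean as a line. Anxa1 is higher in all PFF libraries, Anxa4 and Anxa11 overlap, and Anxa2, Anxa3, Anxa5, Anxa6 and Anxa7 are lower in all PFF libraries.

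Genes whose profile over the 6 libraries was most like that of a called annexin were sought among 11060 genes whose mean reached 5 CPM. The members and genes with a bare model, clone or accession name had been left out of these. Likeness was the root mean square difference of log2 CPM after each gene was centred on its PBS mean. Closest to Anxa1 were Cd36, a scavenger receptor (0.35 log2 units apart, log2 fold change 2.94), Plau, the urokinase gene (0.38, 2.31) and Msr1, another scavenger receptor (0.39, 2.39). Closest to Anxa4 were Litaf, a lysosomal membrane gene (0.06 apart), Plek, the leukocyte gene of pleckstrin (0.09), and Atp6v0d2, a subunit of the proton pump (0.12), with log2 fold changes of 1.10, 1.10 and 1.10. Closest to Anxa3 were Fblim1 (0.12 apart), Rab3il1 (0.13) and the cathepsin gene Ctsh (0.16), with log2 fold changes of 1.16, 1.04 and 0.83, of which that of Ctsh was not called in 8 of 18 alternatives. Closest to Anxa5 were Hexa, a lysosomal hexosaminidase subunit (0.07 apart, log2 fold change 0.36), Lhfpl2 (0.07) and Myl12a (0.07), the last pair of which did not pass the test, while the call of Hexa ended without PBS 1, PBS 2 or PFF 2. The distances include the difference between the groups and the noise of 6 libraries.

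Partners and pathways of the annexins were read from related lists that were set up with earlier results of these data known. The counts of genes that rose or fell in a list stand beside 3.98% and 2.6% over all genes tested, so that a count of 1 or 0 in a list of this size is near that share. In the S100 family, whose members clip onto annexin tails, 0 of 9 tested genes rose and 1 fell, with a median log2 fold change of −0.05. S100a10, the partner of Anxa2, was at 79.2, 80.8 and 87.5 CPM in PBS 1, 2 and 3 and at 73.7, 79.9 and 95.8 CPM in PFF 1, 2 and 3 (log2 fold change 0.01 ± 0.10). S100a11, the partner of Anxa1, had 0.04 ± 0.14 and S100a6 0.02 ± 0.21, and the sign of all 3 turned under some alternatives. S100a16 was the member that fell, from 180 ± 19.9 to 109 ± 16.02 CPM (−0.72 ± 0.11, edgeR adjusted p = 0.000792). Its level was 199, 159 and 180 CPM in PBS 1, 2 and 3 and 98.5, 100 and 127 CPM in PFF 1, 2 and 3, with the groups apart. The number that fell was 3 without PFF 3 and with replicates 1 and 2 only.

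The receptors of annexin A1 were close to undetected. Fpr1 had 1 count in each PBS library and 1, 3 and 0 counts in PFF 1, 2 and 3. Fpr2 had 1, 0 and 0 counts in PBS 1, 2 and 3 and 0, 0 and 2 in PFF 1, 2 and 3. Of the 6 formyl peptide receptor genes in the table, 4 were at 0 in every library, and none had enough counts to be tested.

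In the list of plasminogen activation at the cell surface, 2 of 8 tested genes rose and none fell, with a median log2 fold change of 0.54. Plau was at 10.5, 6.31 and 8.37 CPM in PBS 1, 2 and 3 and at 42.9, 38.7 and 42.8 CPM in PFF 1, 2 and 3 (2.31 ± 0.14, edgeR adjusted p = 6.35e-07). Its receptor gene Plaur rose by 2.09 ± 0.29, from 0.776 ± 0.196 CPM (edgeR adjusted p = 0.000496). Plat, the tissue-type activator that the complex of annexin A2 and S100a10 is known to bind, was at 38.8 ± 1.43 CPM in PBS and 39.9 ± 3.48 in PFF (0.04 ± 0.09), with its sign turned without PFF 3. The inhibitor gene Serpinb2 (0.94 ± 0.27, edgeR adjusted p = 0.0587) did not pass, but was called without PFF 3 (adjusted p = 0.0291), with no low-count filter (0.0485), with replicates 1 and 2 only (0.0257), under a replicate block (0.0316) and with a batch term for replicate 3 (0.0301). Of the exonic bases of Serpinb2, 12.4% lie inside Serpinb10 on the same strand.

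In the list of calcium-triggered membrane repair, 2 of 20 tested genes rose and 0 fell, and their median log2 fold change was 0.00. Myof, the gene of the ferlin myoferlin, was at 9.96, 8.45 and 7.99 CPM in PBS 1, 2 and 3 and at 17.1, 15.3 and 16.5 CPM in PFF 1, 2 and 3 (0.89 ± 0.13, edgeR adjusted p = 0.000737). The transglutaminase gene Tgm2 rose by 1.36 ± 0.33 from 0.865 ± 0.106 CPM (edgeR adjusted p = 0.0253). Its call ended without PBS 1 (adjusted p = 0.106), PBS 2 (0.0561), PBS 3 (0.0615) or PFF 1 (0.126) and in DESeq2 (0.0580), and 21.8% of its exonic bases lie inside genes on the opposite strand. Pdcd6, a calcium sensor known to bind the tails of annexins A7 and A11, had a log2 fold change of −0.16 ± 0.08 and Sri, which binds annexin A7, −0.15 ± 0.08. Neither passed, and both were named after their values were seen. Ehd1 (−0.21 ± 0.07, edgeR adjusted p = 0.106) had a smaller unadjusted p. It did not pass, but was called lower under a replicate block (0.0376) and with a batch term for replicate 3 (0.0288). Pdcd6ip went the other way (0.20 ± 0.08, edgeR adjusted p = 0.158). It did not pass, but was called higher in 4 of 18 alternatives (adjusted p from 0.0311 to 0.0414). Without PFF 3, where Ehd1 was not called, 1 other gene of the list fell.

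In the list of phosphatidylserine exposure and bridging, 1 of 18 genes rose and none fell (median 0.09). This was Gas6, the bridging ligand of the TAM receptors, at 82.7, 73.1 and 83.9 CPM in PBS 1, 2 and 3 and at 95.5, 98.8 and 102 CPM in PFF 1, 2 and 3 (0.31 ± 0.08, edgeR adjusted p = 0.0321). The call ended without PBS 1 (adjusted p = 0.0898), PBS 2 (0.159), PFF 1 (0.0617) or PFF 2 (0.127). Another gene of the list fell without PBS 3. None of 8 tested copines, another family of calcium-dependent phospholipid binders, passed (median −0.01). Their smallest unadjusted p was that of Cpne7 (−0.33 ± 0.11, edgeR adjusted p = 0.0861). It was called lower in 5 of 18 alternatives, which were no low-count filter (adjusted p = 0.0324), a replicate block (0.00683), replicates 1 and 2 only (0.000812), a batch term for replicate 3 (0.00557) and the fit without PBS 3 (0.00846). Cpne2 was called lower under the batch term alone (adjusted p = 0.0447).

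Anxa1 was first described as a glucocorticoid-induced protein that restrains phospholipase A2, so both pathways were read. Among the glucocorticoid receptor and its targets, 1 of 13 tested genes rose and 1 fell (median 0.02). Sgk1 rose by 0.36 ± 0.09 (edgeR adjusted p = 0.0346), a call that ended without PBS 1 (0.0654), PBS 2 (0.104), PBS 3 (0.0930), PFF 1 (0.136) or PFF 2 (0.137) and in DESeq2 (0.0680). The metallothionein gene Mt1 fell by 0.45 ± 0.11 (edgeR adjusted p = 0.0226), a call that ended without PBS 1 (0.122), PBS 3 (0.0647), PFF 1 (0.0765) or PFF 2 (0.142). The best known targets Fkbp5 (−0.01 ± 0.12) and Tsc22d3 (−0.36 ± 0.14, edgeR adjusted p = 0.146) did not pass. The clock gene Per1 (0.31 ± 0.10, edgeR adjusted p = 0.0909) did not pass, but was called higher in 5 of 18 alternatives, without PFF 3 (0.00611), with no low-count filter (0.0469), under a replicate block (0.00234), with replicates 1 and 2 only (0.00137) and with the batch term (0.00146). The second metallothionein gene Mt2 (−0.33 ± 0.11, edgeR adjusted p = 0.112) was called lower without PFF 3 (0.0104), under the block (0.0162) and with replicates 1 and 2 only (0.00399). Of the exonic bases of Mt2, 73.5% lie inside another gene on the opposite strand.

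In the list of cytosolic phospholipase A2 and eicosanoid synthesis, 4 of 13 tested genes rose and none fell (median 0.08). The phospholipase gene itself, Pla2g4a, had a log2 fold change of 0.14 ± 0.18 and did not pass. The thromboxane synthase gene Tbxas1 was at 2.82, 2.23 and 2.79 CPM in PBS 1, 2 and 3 and at 7.42, 9.69 and 10.2 CPM in PFF 1, 2 and 3 (1.80 ± 0.19, edgeR adjusted p = 8.44e-05). The prostaglandin D synthase gene Hpgds rose by 1.62 ± 0.18 (edgeR adjusted p = 9.97e-05). The leukotriene cofactor gene Alox5ap rose by 2.14 ± 0.50 from 0.378 ± 0.277 CPM, a call that ended without PBS 2 (adjusted p = 0.0590), PBS 3 (0.0680) or PFF 2 (0.0625) and with replicates 1 and 2 only (0.0766). Of its exonic bases, 13.3% lie inside a gene on the opposite strand. The cyclooxygenase gene Ptgs2 rose by 0.72 ± 0.18, a call that ended without PBS 1 (adjusted p = 0.134), PBS 2 (0.0771) or PFF 2 (0.169). The number that rose was 2 without PBS 2 or PFF 2, and 1 gene of the list fell without PFF 3 and 3 with replicates 1 and 2 only. The median of the microglia and macrophage markers was 1.35 here, and their part in these rises was not tested.

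**Figure D5:**
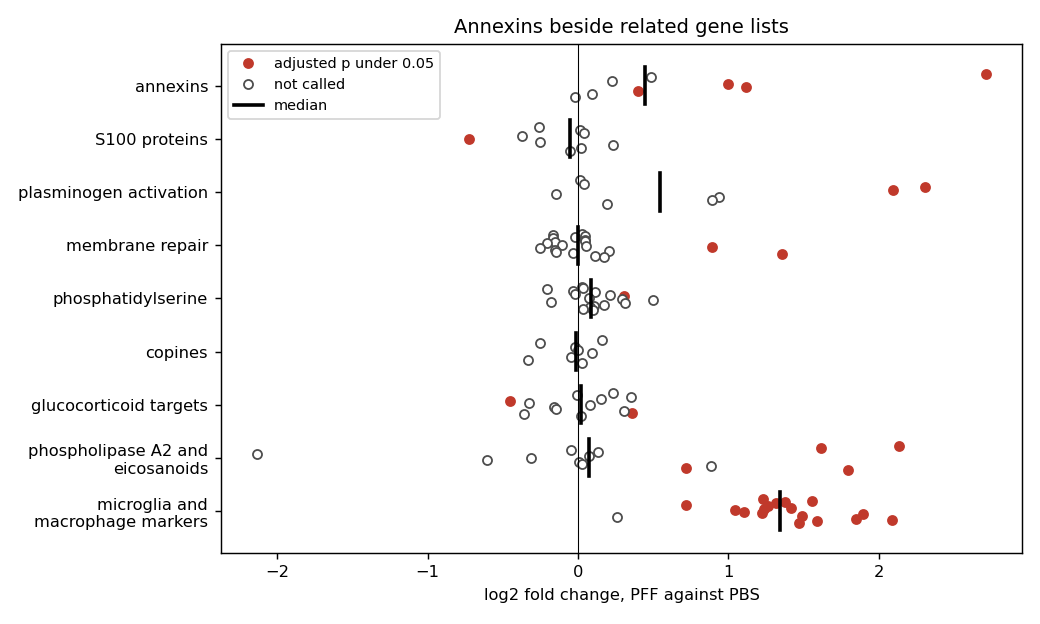
Log2 fold change of every tested gene in the annexin group and in 8 other lists, with filled points for an adjusted p under 0.05 and a black bar at each list's median. The 8 annexins spread from −0.02 to 2.71, the medians of the S100, membrane repair, copine and glucocorticoid lists lie between −0.05 and 0.02, and the microglia and macrophage markers have a median of 1.35.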

How the data were processed

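RNA of 6 samples of mouse cortical neuron cultures (3 PBS, 3 PFF) was sequenced from stranded libraries, per the labels' protocols. The authors deposited unscaled estimated counts for each gene, of which 8.69% were not whole numbers. The tools Trim Galore 0.6.6, STAR 2.7.9a and DESeq2 1.38.3 and the build mm10 are named, per the submitters' processing notes. Which tool counted the reads, with what strand setting and annotation, is not given in the sources used here.

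Columns were matched to samples by name. Counts were rounded and tested in R 4.3.3 with edgeR 4.0.16: filterByExpr kept 13919 of 24411 genes, followed by TMM and a robust two-sided quasi-likelihood F-test on the group with Benjamini-Hochberg adjustment over all genes (threshold 0.05). SE is the log2 fold change divided by the square root of F. Log2 CPM used a prior count of 2, and lengths are unions of GENCODE vM21 exons. The steps were tested on simulated data, where 12 of 50 genes changed by 1.25-fold were recovered. The number was 42 of 50 at 1.5-fold, 43 of 50 at 2-fold and 49 of 50 at 4-fold, so small changes are often missed. limma 3.58.1 and DESeq2 1.42.0 gave alternatives, as did other scalings, filters, a replicate block and left-out libraries.

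The members, lists, tests and alternatives were chosen with earlier results of these data known, and the promoter motifs after the data were seen. Named genes are the members, other annexins, up to 4 genes of each list with the smallest unadjusted p, S100a10, S100a11, S100a6, Fpr1, Fpr2, Plat, and the 3 nearest profiles per called member; other names, such as Spi1, P2ry12, Fkbp5 and Pla2g4a, were added after their values were seen. One gene that this rule names is not reported here.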

Additional observations from a re-analysis of the deposited data

How the results depend on the processing

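Anxa1, Anxa3 and Anxa4 kept their calls under all 18 alternatives, and Anxa2, Anxa6 and Anxa7 were called under none. The number of members called higher ranged from 3 to 5, and 3 to 4 with 1 library left out. Same-numbered replicates correlated in their deviations from the group means by 0.0919, 0.109 and 0.202 over 13919 genes. PBS 1 and PBS 3 correlated best with the PFF library of the same number, but PBS 2 correlated best with PFF 1. The numbers are therefore not taken as a pairing, and a replicate structure shared in part was not tested. With the replicate block the same 4 members were called, and 1043 genes of all tested were higher and 954 lower, against 554 and 362. Using replicates 1 and 2 only gave 1225 and 1169. A batch term for replicate 3 gave 1029 and 976. Leaving out 1 library gave 312 to 871 higher and 100 to 987 lower. Of the related lists together, 10 genes were called higher and 2 lower. Those lower were 6 with the replicate block, 11 with replicates 1 and 2 only and 6 under the batch term for replicate 3, and leaving out 1 library gave 5 to 13 higher and 1 to 7 lower.

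The genes whose sign turned passed neither there nor in the reported test. S100a10 was at −0.000392 with upper-quartile scaling, −0.052 with replicates 1 and 2 only, and −0.0199, −0.00797 and −0.103 without PBS 1, PBS 2 and PFF 3, with a range of −0.103 to 0.0885 when 1 library was left out. S100a11 was at −0.166 with replicates 1 and 2 only and −0.0701 and −0.0616 without PBS 3 and PFF 3 (range −0.0701 to 0.162). S100a6 was at −0.0747 with replicates 1 and 2 only and −0.174 and −0.235 without PBS 2 and PFF 3 (range −0.235 to 0.175). Plat was at −0.0323 without PFF 3 (range to 0.0823), Cpne5 at −0.0176 without PBS 3 and −0.0159 without PFF 1 (range to 0.181), and Anxa7 at 0.0121 with scaling by library totals. The shift in the share of Anxa7 was −2.96 percentage points per length of exon union, −4.75 per length of the longest transcript and −5.52 in counts. At low counts, as in Anxa1 in PBS (12 to 30 counts), depth limits the precision. The cause of these changes was not tested.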
